A study of Mus musculus with 52 samples.

Results

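Coagulation and complement are plasma enzyme cascades whose proteins are made largely by hepatocytes, and the expression of 37 of their genes was followed in regrowing mouse liver. The genes came from a list of 38 names, and each was read by a probe set (a group of short probes on an array) annotated to that gene alone. Where a gene had several such sets, the set that was brightest on average across the 52 arrays was used. Cpb2 was not analysed here. The 37 were compared with all 18195 genes read by the same rule. They comprised 14 clotting genes, 6 anticoagulant genes, 3 genes of fibrinolysis and 14 complement genes.

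In clotting, zymogens such as factor VII, factor X and prothrombin (F2) activate each other in turn until thrombin cuts fibrinogen into fibrin. Antithrombin (Serpinc1), heparin cofactor II (Serpind1) and the protein C system hold this reaction in check, and plasmin, made from plasminogen (Plg), dissolves the clot. Complement is started by antibody, by mannose-binding lectins or through the alternative pathway, which uses factor B. It ends in the membrane attack complex built from C5b to C9. Fibrinogen and several complement proteins are acute phase reactants, whose synthesis in hepatocytes is driven by interleukin-6 after tissue injury.

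The samples were livers of C57Bl6/N mice labelled male, aged 8 to 12 weeks per the study's design text, untreated or after partial hepatectomy, the surgical removal of 2/3 of the liver. All were unmodified animals on standard diet. There were 5 untreated control arrays and 47 arrays from 11 times after surgery. The operated groups held 3 arrays each at 1 hour and 3 months, 4 each at 6, 12 and 48 hours, 3 and 4 days and 1 and 4 weeks, 11 at 24 hours and 2 at 2 weeks. The controls were not operated, so anaesthesia, surgery and loss of tissue cannot be told apart. Nothing in the labels says whether replicates were separate mice, and p-values then measure the spread between these arrays, which may be technical. Values are log2 expression, changes are log2 differences from the 5 controls ± SE, and calls were made at 0.05 on limma p-values adjusted by Benjamini-Hochberg over all 18195 genes. Every comparison with control uses the same 5 arrays.

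Several arrays stood apart. Xist, the RNA that coats the inactive X chromosome in female cells, read 9.15, 9.48 and 9.12 on 24-hour replicates 9, 10 and 11, against 2.51 to 3.81 on the other arrays, although all are labelled male. Deviations over the 2000 most variable genes set 4-week replicate 1 close to the 12-hour group (correlation 0.94) and away from its own (-0.50). For 1-week replicate 4 these correlations were 0.38 and -0.28. In all, 17 of the 52 arrays correlated best with a group other than their own, among them every 1-week and 4-week array. Control replicate 1 and 24-hour replicate 1 had the highest differences between the 3' and 5' Gapdh probe sets, a sign of RNA quality, at 2.56 and 2.32. This difference also moved with the contrast, at 1.61 ± 0.57 (SD, n = 5) in control and 0.65 to 1.10 in the operated groups, and with it as a covariate 34 of the 126 called changes were no longer called. The 7 replicates named above by number were left out in an alternative fit whose values are given where they matter. The hybridization controls averaged 10.85 ± 0.29 (SD, n = 5) on the untreated arrays and 9.73 to 10.38 in the operated groups, and their part in the differences from control was not tested beyond an alternative fit that adds them as a covariate.

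In untreated liver 28 of the 37 probe sets used (75.7%) read above 10 on average, beside 3.84% of those of all genes, although a reading also depends on how well a set's probes bind. The hepatocyte markers, 9 measured genes including albumin, averaged 12.91 to 13.10 in every group. In whole liver, fewer cells of a type and less RNA per cell cannot be told apart. Over the 11 times, 28 of 37 genes changed by the moderated F test, beside 64.6% of all genes. The 9 that were not called were F3, F12, Plg, C6, C8a, C8g, C9, Masp2 and Serping1.

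More of these genes were called at 12 hours than at any other time. At 12 hours 20 genes were called (54.1%), beside 29.9% of all genes, of which 12 were lower (12% of all genes were lower) and 8 higher (17.9%). The lowest group mean fell at 12 hours for 16 of the 37 genes (43.2%), beside 9.08% of all genes. At 12 hours 4 clotting genes were higher and 5 lower, 2 anticoagulant genes were higher and 4 lower, 2 complement genes were higher and 3 lower, and the fibrinolysis genes had 0 calls. The median change of the 37 genes at 12 hours was -0.25, beside -0.04 over all genes.

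**Figure D1:**
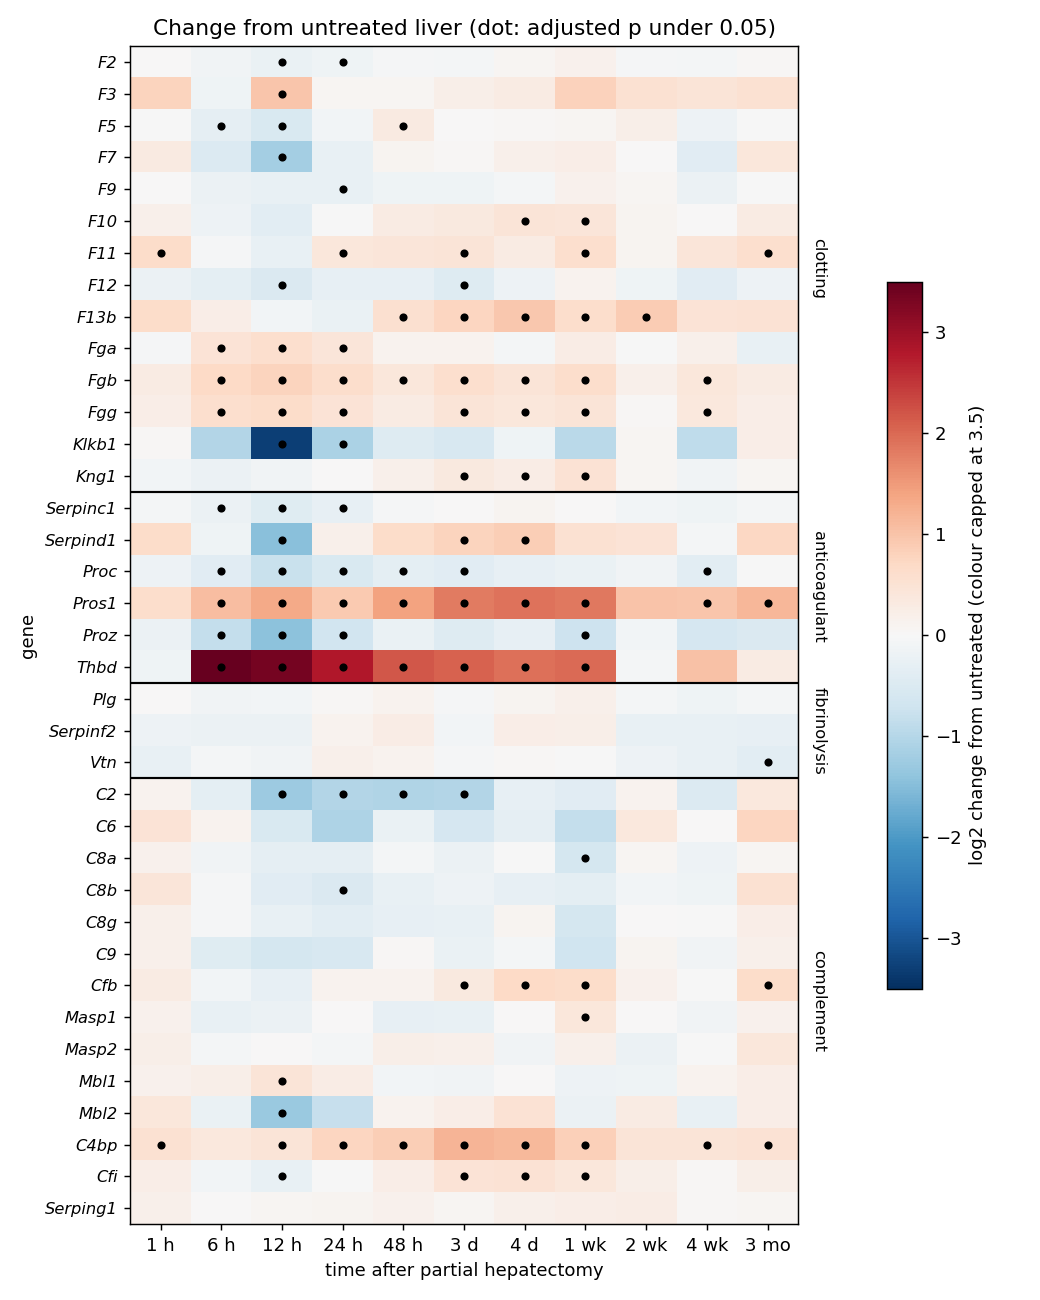
Log2 change from untreated liver (colour, capped at 3.5) for the 37 genes (rows, by role) at the 11 times after surgery (columns), with a dot where the limma adjusted p was under 0.05. The 12-hour column holds 20 dots, the fibrinolysis block 1, and the 2-week column 1.

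Other times gave fewer calls. At 1 hour 2 genes were higher and 0 lower, beside 3.67% and 1.37% of all genes (5.04% called), namely F11 (0.64 ± 0.19) and C4bp (0.52 ± 0.16). Neither stayed called without any of the 3 arrays of that time, or without control replicate 1 or 5, and C4bp also not without control replicate 3. The 6-hour arrays gave 5 higher and 4 lower, beside 11.4% and 10.5% (22% called). The 24-hour arrays gave 7 higher and 8 lower, beside 18.9% and 12.8% (31.7%), and the 48-hour arrays 6 and 2, beside 17.4% and 13.4% (30.8%).

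By 3 days 11 were higher and 3 lower, beside 21.7% and 17.7% (39.4%), and by 4 days 11 and 0, beside 18.8% and 14.1% (32.8%). The 1-week arrays gave 12 higher and 2 lower, beside 21.8% and 14.9% (36.7%). The shares of the 37 genes called were 21.6%, 37.8%, 29.7% and 37.8% from 48 hours to 1 week, close to or below those of all genes. After 2 weeks 1 was higher and 0 lower, beside 2.8% and 0.605% (3.41%). The 4-week arrays gave 4 and 1, beside 9.33% and 5.39% (14.7%), and the 3-month arrays 4 and 1, beside 16.7% and 13.4% (30.1%).

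The fibrinogen chains rose together early. Fga, Fgb and Fgg encode the Aα, Bβ and γ chains of the hexamer that thrombin turns into fibrin, and in the RefSeq gene table they lie next to each other, in the order Fgg, Fga, Fgb, with 0 protein-coding genes between neighbours. The 250 bases before each start (RefSeq, GRCm38.p6, mouse chromosome 3) are shown because the chains moved together. They are Fga at chr3:83025903-83026152 on the plus strand, Fgb at chr3:83049864-83050113 on the minus strand and Fgg at chr3:83007474-83007723 on the plus strand. Capitals mark matches on either strand to the interleukin-6 response element core CTGGGAA, the STAT motif TTCNNNGAA and the HNF1 core GTTAAT.

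Fga: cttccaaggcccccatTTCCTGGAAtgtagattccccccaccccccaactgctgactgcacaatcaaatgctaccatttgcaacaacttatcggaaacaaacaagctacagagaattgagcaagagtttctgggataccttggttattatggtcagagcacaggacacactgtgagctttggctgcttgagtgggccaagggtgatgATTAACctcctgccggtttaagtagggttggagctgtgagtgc
Fgb: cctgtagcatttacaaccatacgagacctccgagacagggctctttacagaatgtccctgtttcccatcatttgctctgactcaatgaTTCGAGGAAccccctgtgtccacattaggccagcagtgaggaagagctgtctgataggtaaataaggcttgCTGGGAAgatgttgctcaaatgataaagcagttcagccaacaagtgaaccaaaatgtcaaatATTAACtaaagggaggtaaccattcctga
Fgg: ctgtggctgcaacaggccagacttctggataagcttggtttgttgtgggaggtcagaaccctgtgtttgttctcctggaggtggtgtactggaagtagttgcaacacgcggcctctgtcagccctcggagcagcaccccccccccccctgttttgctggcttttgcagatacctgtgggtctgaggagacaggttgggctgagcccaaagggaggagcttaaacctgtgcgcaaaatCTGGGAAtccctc

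CTGGGAA was found before Fgb and Fgg, and TTCNNNGAA and GTTAAT before Fga and Fgb. No match overlapped another. Over all 32851 RefSeq promoter windows, CTGGGAA stood in 9.1%, TTCNNNGAA in 7.02% and GTTAAT in 6.43%, and of the 28 genes of the list with a window it stood in 4, 6 and 8. TATAAA, also searched, was found in 12.37% of windows and in 2 of the 28 genes, Klkb1 and Vtn. The shares over all are per window, while a listed gene was counted if any of its windows matched. A gene with several windows had more chances of a match, so the counts and shares are not directly comparable. A match is a description of the letters and not of binding.

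Fgb read 12.66, 13.22, 12.90, 12.96 and 12.84 on the control arrays, 13.63, 13.68, 13.57 and 13.62 at 6 hours and 13.69, 13.74, 13.70 and 13.69 at 12 hours. Each 6-hour and 12-hour array lay above every control. The change was 0.71 ± 0.12 at 6 hours (adjusted p = 2.5e-05) and 0.79 ± 0.12 at 12 hours (adjusted p = 3.9e-06), a 1.73-fold rise. Fgg rose by 0.60 ± 0.12 and 0.65 ± 0.12 and Fga by 0.49 ± 0.15 and 0.59 ± 0.15 at the same times, and for both genes the groups did not overlap. At 24 hours the changes were 0.43 for Fga, 0.62 for Fgb and 0.49 for Fgg. These chains read near the top of the scale, with 13.91 the highest value of any gene of the list and 14.14 the highest of all genes, so the size of a rise may be compressed.

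Later calls were made for Fgb and Fgg. Fgb was called higher at 8 times and Fgg at 7, including 3 days (0.58 and 0.45), 4 days (0.46 and 0.39), 1 week (0.60 and 0.44) and 4 weeks (0.40 and 0.36). Fga was called at 6, 12 and 24 hours and was 0.12 ± 0.15 at 3 days and -0.06 ± 0.15 at 4 days. The difference between the chains was not tested. Without the 7 arrays that stood apart, the 4-week changes were 0.18 for Fgb and 0.09 for Fgg and were no longer called, Fgg was 0.19 at 1 week and not called, and Fga at 24 hours was 0.30 and not called. Single arrays also ended late calls. Without control replicate 1, Fgb at 48 hours and 4 weeks was 0.34 and Fgg at 4 days 0.26. Fgb at 4 weeks was 0.38 without control replicate 5, and Fgg there was lost without control replicate 1, 3 or 5 or 4-week replicate 4. Without 4-week replicate 1 the values were 0.25 and 0.21, Fgg was 0.32 without 1-week replicate 4, and 0.30 at 4 days without 4-day replicate 4.

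**Figure D2:**
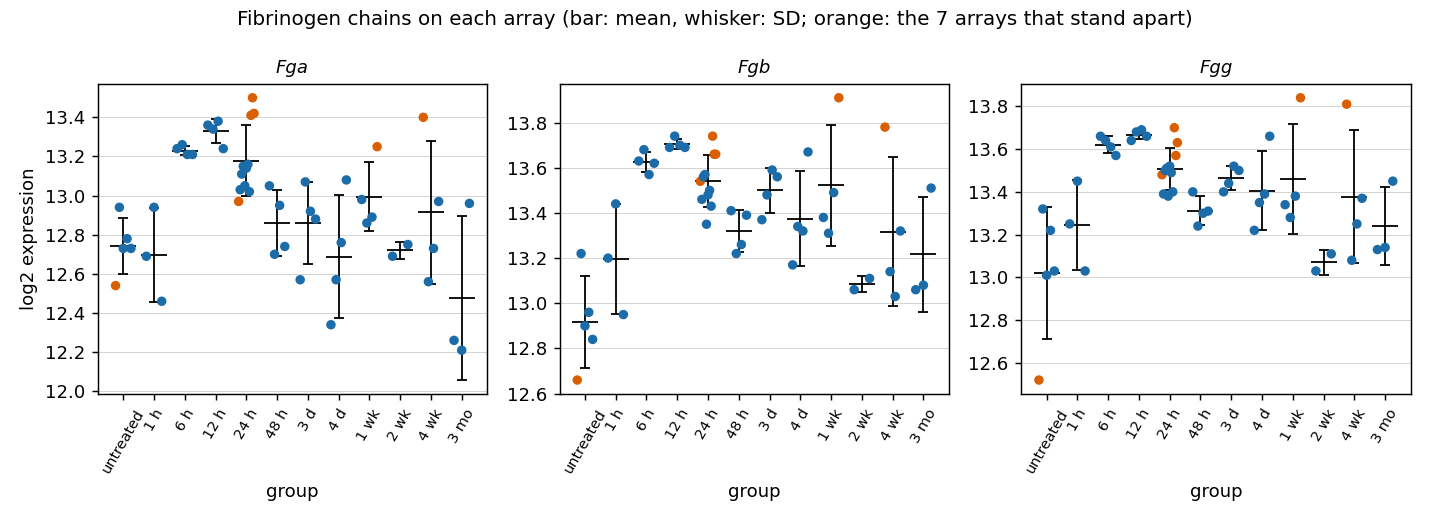
Log2 expression of Fga, Fgb and Fgg on each of the 52 arrays by group, with the mean (bar) and SD (whisker) and the 7 arrays that stand apart in orange. The 6-hour and 12-hour arrays of each chain lie above all 5 control arrays.

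Plasma kallikrein and factor VII fell at 12 hours. Klkb1 encodes prekallikrein, whose active form takes part in contact activation of clotting and cuts kininogen. It read 10.39 to 10.63 on the 5 control arrays, 9.44, 9.43, 9.50 and 9.44 at 6 hours and 7.27, 7.04, 6.98 and 7.47 at 12 hours. The 12-hour arrays lay below every array of the controls, 1 hour and 6 hours. The change at 12 hours was -3.30 ± 0.49 (adjusted p = 1.3e-06), 9.85-fold lower than in control, and its values over the alternatives and left-out arrays lay between -3.71 and -3.23. At 24 hours the lowest, median and highest arrays were 7.61, 9.65 and 10.25, a change of -1.11 ± 0.39 (adjusted p = 0.027), and without the 7 arrays it was -0.67. It was not called without 24-hour replicate 9 (-0.93), without control replicate 3 (-1.08) or without the 3 arrays with Xist signal (-0.78). By 2 weeks it read 10.56 and 10.54.

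On 1-week replicate 4 Klkb1 read 6.95, and on 4-week replicate 1 it read 7.22, while the other arrays of those groups read 10.13 to 10.63. The 4-week value lies among the 12-hour arrays and the 1-week value just below them, and the 1-week mean of 9.55 has an SD of 1.73. Klkb1 and F11, which encodes factor XI, are neighbours with 0 protein-coding genes between them. F11 read 7.62, 7.84, 7.46 and 8.04 at 12 hours against 7.75 to 8.15 in control, overlapping, and was not called. F11 was higher at 1 hour, 24 hours, 3 days, 1 week and 3 months, by 0.40 to 0.64. Of these later calls, 3 days was lost without 3-day replicate 1, 2 or 4 or control replicate 1 or 5, 24 hours without control replicate 1 or 5, 3 months without replicate 1 or 3, and 1 week (0.40) without replicate 4.

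F7, the plasma protease that binds tissue factor, read 8.34, 8.24, 7.95 and 8.25 at 12 hours and 8.91, 9.62, 9.40, 9.43 and 9.50 in control. No 12-hour array reached a control, and the change was -1.18 ± 0.22 (adjusted p = 5.4e-05). F5, the cofactor that speeds thrombin formation, fell at 6 hours (-0.30 ± 0.11) and 12 hours (-0.53 ± 0.11) and rose at 48 hours (0.33 ± 0.11). F5 read 10.22, 10.03, 10.37 and 10.05 at 12 hours and 11.18, 10.94, 11.01 and 10.95 at 48 hours, with the controls, 10.57 to 10.84, between them. The 48-hour call was lost without 48-hour replicate 1 (0.27) or control replicate 1 (0.30), and the 6-hour call without 6-hour replicate 1, 2 or 3 or control replicate 4 or 5.

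The other clotting genes had calls in both directions. F2 was lower at 12 hours (-0.22) and 24 hours (-0.15), F9, factor IX, at 24 hours (-0.25) and F12, factor XII, at 12 hours (-0.50) and 3 days (-0.44). F3, tissue factor, was called at 12 hours (0.98 ± 0.37) at a level near that of the median probe set, with arrays that overlapped the controls. Calls on the higher side came later for F10, factor X, at 4 days (0.46) and 1 week (0.42), and for Kng1, kininogen, at 3 days (0.34), 4 days (0.27) and 1 week (0.49). A second Kng1 probe set gave -0.12 at 3 days, -0.18 at 4 days and 0.18 at 1 week, so the 3-day and 4-day changes differ in sign between the sets, and with the mean of the sets neither was called (0.11 and 0.05).

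Several of these small changes rested on single arrays. F2 at 24 hours was lost on leaving out any of 13 arrays, F12 at 3 days any of 8 (-0.29 without 3-day replicate 1), F12 at 12 hours any of 5, F3 any of 5, and Kng1 at 4 days any of 6. F9 was lost without control replicate 2 or 5. F10 was 0.36 at 4 days and 0.32 at 1 week without control replicate 1, and was lost at 1 week without replicate 2 or 3.

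F13b, the carrier subunit of the fibrin-crosslinking factor XIII, was higher from 48 hours to 2 weeks. It read 9.17, 10.11, 9.75, 10.05 and 9.92 in control and 10.77, 10.41, 10.96 and 10.80 at 4 days. All 4-day arrays exceeded the controls, and the change was 0.94 ± 0.21 (adjusted p = 0.00061). At 2 weeks the 2 arrays read 10.61 and 10.78, and F13b was the gene called there (0.90 ± 0.26, adjusted p = 0.041). That call was lost without either 2-week array and without control replicate 1 (0.74) or 3 (0.88). F13b at 48 hours (0.55) was lost without 48-hour replicate 1, 2 or 4 or control replicate 1 or 3, and at 1 week (0.62) without 1-week replicate 3 or control replicate 1.

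Among the anticoagulants, thrombomodulin rose most. Thbd encodes the membrane receptor that turns thrombin into an activator of protein C, and it is known from endothelium and also from myeloid cells. It read 3.48, 4.32, 3.75, 4.04 and 4.16 in control, near the median of all probe sets on those arrays (4.04), and 3.87, 3.72 and 3.82 at 1 hour. It then read 8.27, 7.97, 8.12 and 7.94 at 6 hours and 6.80, 7.44, 7.39 and 7.55 at 12 hours. No array from 6 hours to 1 week overlapped the controls. With values below an array's median raised to it, the rise was at least 15.4-fold at 6 hours and at least 8.96-fold at 12 hours. The fitted changes were 4.12 ± 0.40 (adjusted p = 1.4e-10) and 3.34 ± 0.40, followed by 2.81 and 2.19 on the 24-hour and 48-hour arrays and by 2.06, 1.93 and 1.97 on the 3-day, 4-day and 1-week arrays. At 2 weeks the arrays read 4.45 and 3.31, and at 3 months 4.43, 4.54 and 3.78, overlapping the controls. At 4 weeks replicate 1 read 7.13 and the others 4.49, 4.13 and 4.11.

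Markers of other cells moved beside Thbd, and their part in its rise was not tested. Of all genes 11.4% were higher at 6 hours and 16.7% at 3 months. At 6 hours 1 of 10 sinusoidal endothelial markers was higher, Lyve1 (3.51 ± 0.61), with the mean level of the 10 at 6.20 to 6.57 against 5.26 to 6.29 in control. At 6 hours 3 of 8 monocyte and neutrophil markers were higher, with the mean level at 5.10 to 5.55 against 4.24 to 4.51 in control. Of 11 Kupffer cell markers 3 were higher at 6 hours, with the mean level at 5.56 to 5.81 against 4.30 to 5.30 in control. At 24 hours, 3 days, 4 days and 1 week, when Thbd was called, 10 of the 11 Kupffer cell markers were higher. At 12 and 48 hours, when Thbd was also called, 3 and 6 were higher. At 2 weeks and 3 months, when Thbd was not called, 10 were higher. At 1 hour and 4 weeks, also without a call of Thbd, 5 and 8 were higher. Of all genes 2.8% to 21.8% were higher at these times.

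Protein S (Pros1), the cofactor of activated protein C, rose over most of the course. It read 6.91, 7.84, 7.48, 7.57 and 7.50 in control, 8.47, 8.49, 8.69 and 8.53 at 6 hours and 9.25, 9.48, 9.32 and 9.40 at 4 days. The groups did not overlap, and the change went from 1.09 ± 0.34 at 6 hours to 1.91 ± 0.34 at 4 days (adjusted p = 3.9e-05), a 3.75-fold rise. Pros1 was called at 9 times, among them 3 months (1.17 ± 0.37). At 1 week replicate 4 read 11.32 and the others 8.69, 8.31 and 8.90, so the 1-week change of 1.85 became 1.04 without the 7 arrays. The 4-week change was 0.98 with all arrays and 0.56, not called, without the 7. It was also lost without 4-week replicate 1 (0.70) or 4 or control replicate 1, 3 or 5. The 6-hour call was lost without control replicate 1 (0.95), and the 3-month call without 3-month replicate 1 or 3.

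Protein C (Proc), which Pros1 assists, went the other way. It read 11.58, 11.52, 11.63, 11.58 and 11.62 in control and 10.79, 10.71, 10.72 and 10.97 at 12 hours, without overlap. The change was -0.79 ± 0.13 (adjusted p = 4.2e-06), and Proc was also lower at 6 hours (-0.40), 24 hours (-0.54), 48 hours (-0.35), 3 days (-0.39) and 4 weeks (-0.37). Antithrombin (Serpinc1), the main inhibitor of thrombin and factor Xa, read 12.95 to 13.02 in control and 12.61, 12.55, 12.52 and 12.61 at 12 hours. Its arrays at 12 hours all lay below control, by a small amount of -0.41 ± 0.07, and it was also lower at 6 hours (-0.21) and 24 hours (-0.28). The 6-hour call of Serpinc1 was lost without any 6-hour array or control replicate 5. Proc was lost at 48 hours without 48-hour replicate 1 or 2, at 4 weeks without 4-week replicate 1 or 4, and at both without control replicate 1, 3 or 5.

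Heparin cofactor II and protein Z had sharper troughs. Serpind1, which inhibits thrombin, read 9.62, 10.63, 10.30, 10.75 and 10.37 in control, 9.24, 9.07, 8.35 and 8.84 at 12 hours and 11.20, 11.44, 11.12 and 10.97 at 4 days. The 12-hour arrays lay below all controls and the 4-day arrays above them. The changes were -1.46 ± 0.30 (adjusted p = 0.00016) and 0.85 ± 0.30 (adjusted p = 0.025). The 4-day call was lost without control replicate 1 (0.67), the lowest control, and without 4-day replicate 1 (0.84) or 2 (0.76). Serpind1 at 3 days (0.77) was lost without 3-day replicate 1, 3 or 4 or control replicate 1 (0.60) or 3.

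Protein Z (Proz) is the cofactor with which the inhibitor Serpina10 blocks factor Xa. Proz read 10.82, 10.64, 10.70, 10.68 and 10.69 in control and 9.44, 9.39, 8.95 and 9.29 at 12 hours, without overlap. The changes were -0.83 at 6 hours, -1.44 ± 0.23 at 12 hours (adjusted p = 3.2e-06), -0.68 at 24 hours and -0.73 at 1 week. A second Proz probe set gave -0.29 at 12 hours, 0.45 ± 0.16 at 24 hours and 0.66 at 1 week, so the 24-hour and 1-week changes differ in sign between the sets. With the mean of the sets they were -0.12 and -0.03 and were not called. The 1-week call was lost without 1-week replicate 4 (-0.59). Serpina10 was higher at 9 times, by 1.60 ± 0.24 at 6 hours and 1.79 ± 0.24 at 12 hours, when Proz was lower. F7, F10 and Proz are neighbours with 0 protein-coding genes between them, and at 12 hours F7 and Proz were lower while F10 was -0.36 ± 0.15 and not called.

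**Figure D3:**
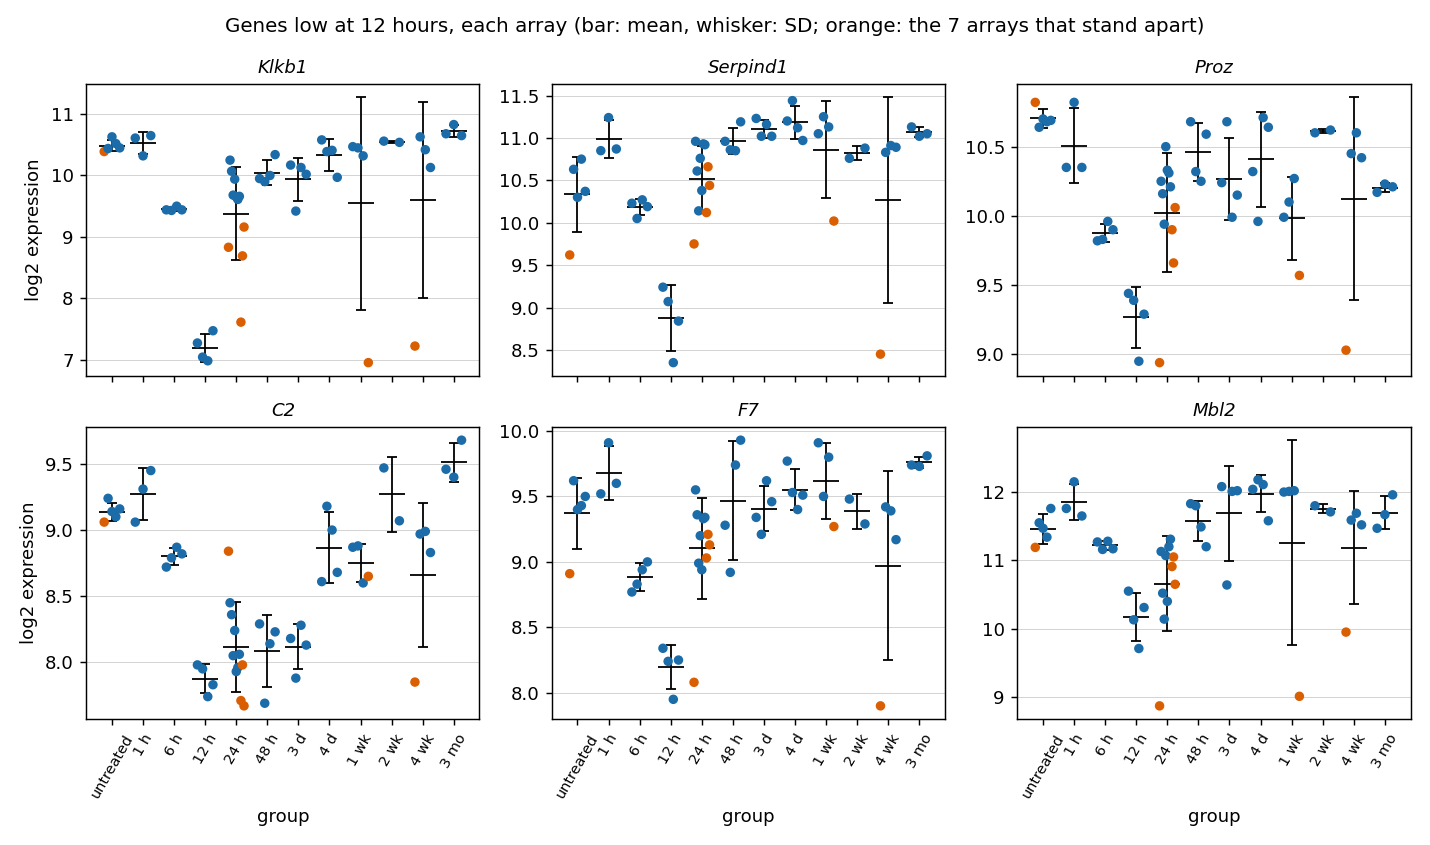
Log2 expression of Klkb1, Serpind1, Proz, C2, F7 and Mbl2 on each of the 52 arrays by group, with the mean (bar) and SD (whisker) and the 7 arrays that stand apart in orange. In each panel the 12-hour arrays lie below the 5 controls, and 4-week replicate 1 lies near them.

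In fibrinolysis 1 call was made against control over the 11 times, while 3.41% to 39.4% of all genes were called at a single time. Plg encodes plasminogen, Serpinf2 encodes the plasmin inhibitor α2-antiplasmin, and Vtn encodes vitronectin, which stabilizes the plasminogen activator inhibitor PAI-1. Plg read 12.67, 12.94, 12.73, 12.85 and 12.92 in control and 12.70, 12.62, 12.82 and 12.78 at 12 hours, overlapping. Its change at 12 hours was -0.09, with a 95% interval of -0.33 to 0.16, and limma called it at 0 of the 11 times, also at 0 with an unadjusted p under 0.05. Serpinf2 was called by the F test but at 0 single times against control, and at 1 with an unadjusted p under 0.05, with changes from -0.29 to 0.26. Vtn was lower at 3 months (-0.38 ± 0.10, adjusted p = 0.0061), where its arrays read 12.50, 12.20 and 12.34 against 12.70 to 12.78 in control. That call was lost without 3-month replicate 2 (-0.30). A second Vtn probe set gave -0.83 at 3 months. At 3 days, 4 days and 1 week that second set gave -0.555, -0.44 and -0.47, beside -0.04, 0.05 and -0.02 in the set used.

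In complement, C2 fell early and its neighbour Cfb rose later. C2 supplies the protease of the classical and lectin pathway convertase, and factor B (Cfb) is its counterpart in the alternative pathway, with 0 protein-coding genes between them. C2 read 9.06, 9.24, 9.14, 9.10 and 9.16 in control, 7.98, 7.95, 7.74 and 7.83 at 12 hours and 8.18, 7.88, 8.28 and 8.13 at 3 days. The groups did not overlap. The change was -1.27 ± 0.18 at 12 hours (adjusted p = 5.3e-07), -1.03 at 24 hours, -1.06 at 48 hours and -1.03 at 3 days, and it was -0.28 and not called at 4 days. All 3 C2 probe sets were lower at 12 hours, by -1.27, -0.89 and -0.75.

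Cfb read 10.22, 10.80, 10.44, 10.66 and 10.48 in control and 10.85, 11.64, 11.04 and 11.30 at 4 days, and each 4-day array exceeded the controls. Cfb was higher at 3 days (0.35), 4 days (0.69 ± 0.13, adjusted p = 0.00014), 1 week (0.64) and 3 months (0.65). At 12 hours its change was -0.29 ± 0.13 and was not called. The 3-day call was lost on leaving out any of 7 arrays, with 0.28 without control replicate 1.

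The mannose-binding lectins, which recognise microbial sugars and start the lectin pathway, parted at 12 hours. Mbl2 read 11.19, 11.55, 11.47, 11.34 and 11.76 in control and 10.55, 10.13, 9.71 and 10.31 at 12 hours. Mbl1 read 10.42, 10.85, 10.59, 10.73 and 10.38 in control and 10.97, 11.14, 10.90 and 11.17 at 12 hours. Neither gene overlapped, and the changes were -1.29 ± 0.41 (adjusted p = 0.014) for Mbl2 and 0.45 ± 0.15 (adjusted p = 0.023) for Mbl1. Without 12-hour replicate 3 Mbl2 was -1.13 and not called, and Mbl1 was lost without 12-hour replicate 2 or 4 or control replicate 1 or 5. Of their proteases, Masp1 was higher at 1 week (0.39 ± 0.15), a call lost without 1-week replicate 1, 3 or 4 or control replicate 2 or 4. Masp1 had 5 probe sets, and the others gave 0.43, 0.04, 0.41 and 0.26 at 1 week. At 6 hours the set used gave -0.27 and the others 0.60, 0.34, 0.51 and 0.28, a difference in sign. At 12 hours it gave -0.22 and the others 0.05, -0.20, 0.12 and 1.56, the last from a set that read 2.29 in control. Masp2 was called by limma at 0 times, and at 0 with an unadjusted p under 0.05, although a second Masp2 set gave -0.88 ± 0.24 at 12 hours, beside 0.02 ± 0.21.

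C4b-binding protein and factor I together inactivate C4b, and both rose in the days after surgery. C4bp read 10.24, 11.29, 11.08, 11.31 and 10.91 in control and 12.15, 12.39, 12.07 and 12.01 at 3 days, with no overlap. The change was 1.19 ± 0.15 (adjusted p = 7.4e-08), 2.28-fold, and C4bp was called at 9 times. Without control replicate 1 C4bp was 0.34 at 1 hour, 0.26 at 12 hours, 0.26 at 4 weeks and 0.34 at 3 months, not called. C4bp was also lost at 12 hours without 12-hour replicate 1 or 2, at 4 weeks without 4-week replicate 1, 3 or 4 or control replicate 5, and at 3 months without 3-month replicate 1. Both Pros1 and C4bp were high at 3 and 4 days. Cfi read 11.83, 12.25, 12.00, 12.14 and 12.12 in control and 12.54, 12.52, 12.56 and 12.67 at 4 days, all above control. Cfi was -0.25 ± 0.10 at 12 hours, a call lost on leaving out any of 6 arrays, and 0.47, 0.50 and 0.40 at 3 days, 4 days and 1 week. Serping1, the C1 inhibitor that also blocks kallikrein and factor XII, was called by limma at 0 times, and at 0 with an unadjusted p under 0.05.

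**Figure D4:**
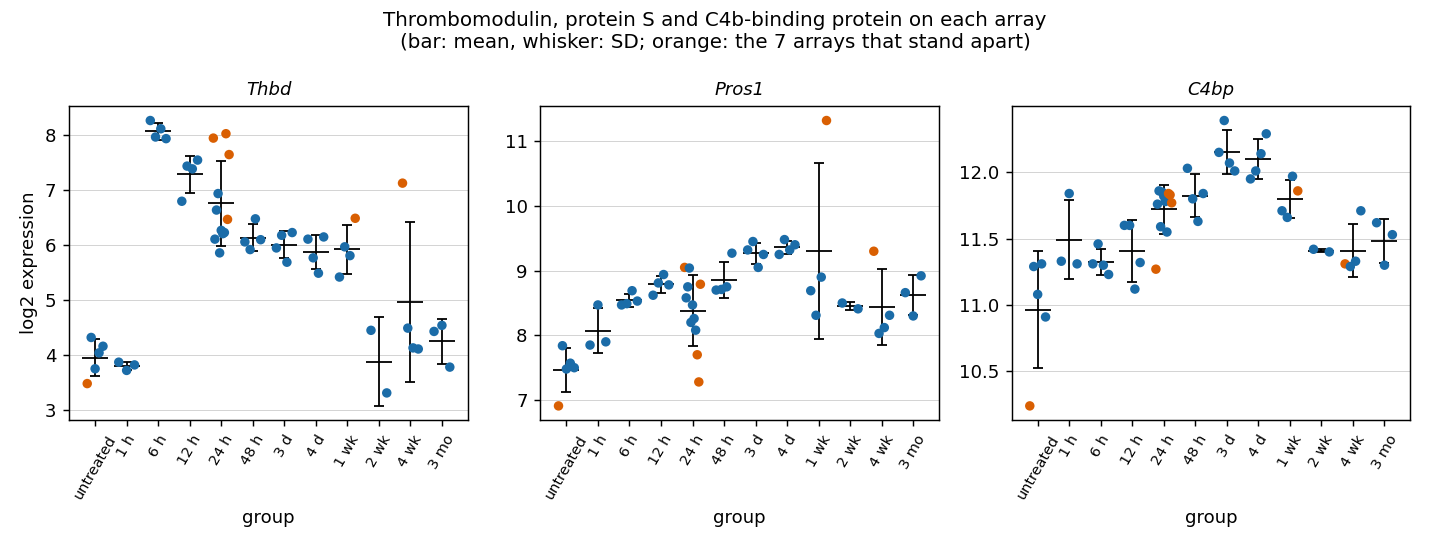
Log2 expression of Thbd, Pros1 and C4bp on each of the 52 arrays by group, with the mean (bar) and SD (whisker) and the 7 arrays that stand apart in orange. Thbd has its highest mean at 6 hours (8.07), Pros1 at 4 days (9.36) and C4bp at 3 days (12.16).

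The membrane attack genes C6, C8a, C8b, C8g and C9 had 2 calls against control in all. Of all genes 3.41% to 39.4% were called at a single time. C8b was lower at 24 hours (-0.51 ± 0.19, adjusted p = 0.039; -0.26 and not called without the 3 arrays with Xist signal, and lost on leaving out any of 8 single arrays) and C8a at 1 week (-0.62 ± 0.21, adjusted p = 0.017). The C8a call rested on 1-week replicate 4, which read 10.18 beside 11.81, 11.71 and 11.56, and it was -0.25 and not called without that array. On the same array C8g read 8.43 beside 11.55 to 11.69.

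C6, the protein that binds C5b first, read low on some of the 24-hour arrays. It read 5.44 to 5.96 on the 3 arrays with Xist signal and 8.24 to 9.87 on the other 8. The 24-hour change was -1.09 and not called, and it was -0.17 without those 3 arrays. In all 8 of the 37 genes (21.6%) on the Xist arrays lay outside the range of the other 8 arrays, beside 4.2% of all genes. F5, F12, C6, C8g and Masp1 were lower there, and Fga, Fgb and Fgg were higher.

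**Figure D5:**
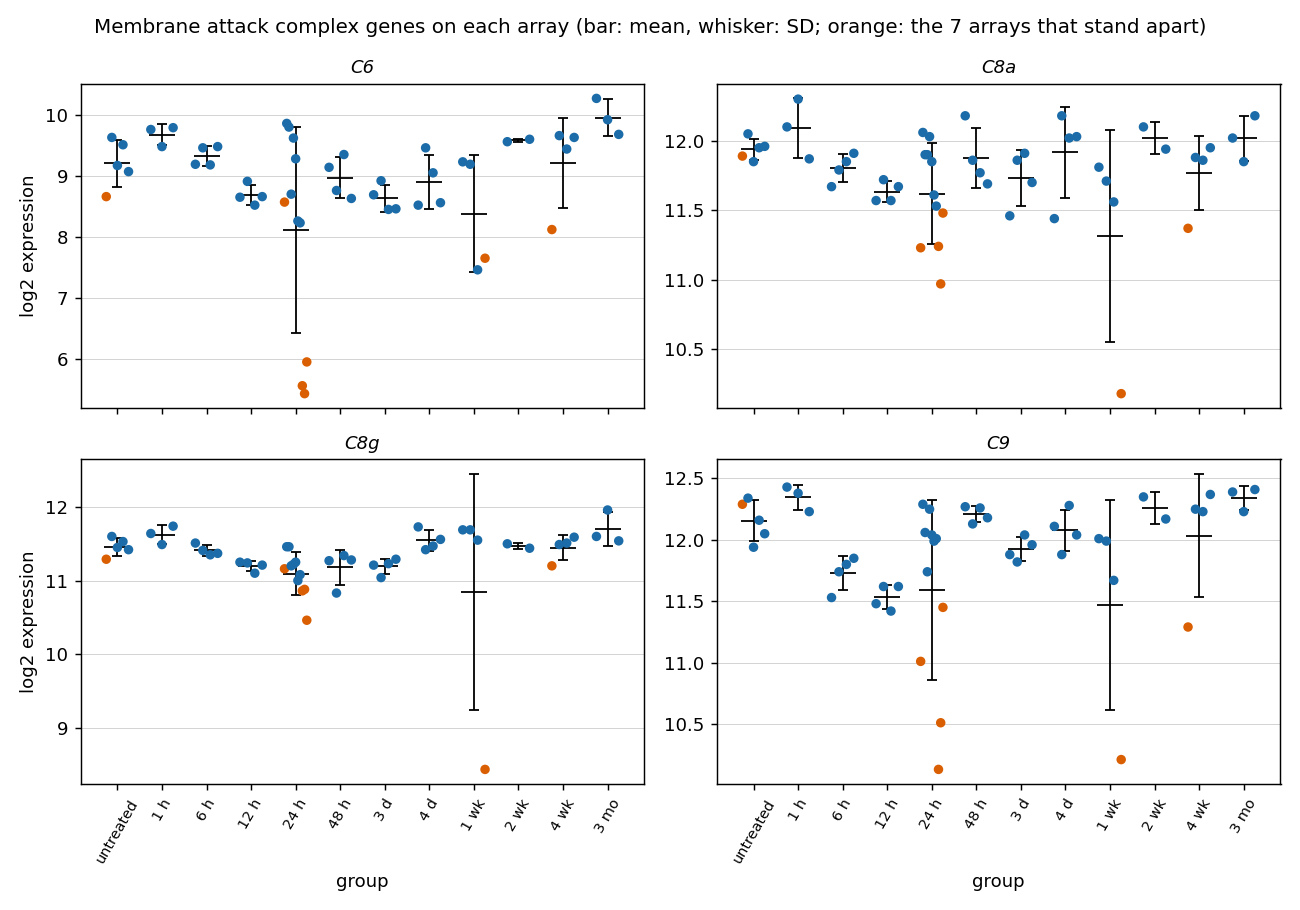
Log2 expression of C6, C8a, C8g and C9 on each of the 52 arrays by group, with the mean (bar) and SD (whisker) and the 7 arrays that stand apart in orange. In the C6 panel 3 of the 24-hour arrays lie at 5.44 to 5.96 and the other 8 at 8.24 to 9.87.

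The times were also compared with each other. From 1 hour to 24 hours 3 genes were higher and 6 lower, beside 7.97% and 5.16% of all genes (13.1% called). Thbd (2.96 ± 0.39), Fga (0.48) and Vtn (0.42) were higher, and Mbl2 (-1.20), C2 (-1.16), C8b (-0.93), F13b (-0.88), Proc (-0.37) and Serpinc1 (-0.21) were lower. Without 1-hour replicate 1 the count was 4, with Vtn at 0.29 and Fga at 0.48 among those lost. The calls of Mbl2, Proc and Serpinc1 were lost on leaving out any of 5, 6 and 7 single arrays, each of the 3 arrays at 1 hour among them, and Fga was also lost without 1-hour replicate 3 (0.36). From 12 to 24 hours, a comparison added after the values were seen, 8 genes were higher and 0 lower. Of all genes 9.72% were called there in either direction, and their shares per direction were not computed. The 8 genes included Klkb1 (2.19 ± 0.43), Serpind1 (1.64 ± 0.26), F7 (0.91) and Proz (0.76).

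From 24 hours to 1 week 12 genes were higher and 1 lower, beside 8.58% and 5.07% of all genes (13.6% called). F13b (0.86 ± 0.18), C2 (0.63 ± 0.16), Cfb (0.51), Kng1 (0.48), Cfi (0.41) and F9 (0.41) were among those higher, and Mbl1 (-0.41 ± 0.13) was lower, a call lost without 1-week replicate 3 or 4 or 24-hour replicate 6. Masp1 (0.37), Proc (0.32) and F10 (0.43) were lost on leaving out any of 10, 9 and 2 single arrays. Pros1 (0.92) was called here with 1-week replicate 4 and was 0.25, not called, without it. From 1 week to 3 months 0 genes were called by limma with adjustment over all genes (0.302% of all genes were higher and 0.506% lower, 0.808% in all), 14 had an unadjusted p under 0.05, and 7 were called without the 7 arrays that stood apart, beside 2% of all genes in that fit. Those 7 included Thbd (-1.49) and C2 (0.73).

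The hybridization controls were added as a covariate, and 71 of the 126 called changes were then no longer called. With this covariate 7 genes were called at 6 hours (18% of all genes) and 11 at 24 hours (13.3%). In that fit 16 genes were called at 12 hours (20.1% of all genes), 2 at 3 days (1.03%), 1 at 4 days (0.676%), 0 at 1 week (0.775%) and 0 at 3 months (0%). At 4 days Pros1 was then 1.95 and Thbd 1.83, close to 1.91 and 1.93 without the covariate but not called, and Serpind1 was 0.23. C2 and C4bp at 3 days, and C4bp at 4 days, were called in both fits.

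Other genes of the pathways were read from lists of 22 measured genes each. Of the other clotting and fibrinolysis genes 5 were higher and 1 lower at 12 hours (27.3%, beside 29.9% of all genes), and 8 and 1 at 4 days (40.9%, beside 32.8%). Besides Serpina10, the genes named by number of calls and then size of change were Pzp, a protease trap of plasma (0.37 ± 0.08 at 12 hours), Anxa2, a plasminogen receptor (2.30 ± 0.35 at 4 days), and Hgfac, a protease that activates hepatocyte growth factor (-1.23 ± 0.26 at 12 hours). Of the other complement genes 3 were higher and 4 lower at 12 hours (31.8%, beside 29.9% of all genes), and 8 and 1 at 4 days (40.9%, beside 32.8%). C1qa, C1qb and Vsig4, which are made by macrophages and are also Kupffer cell markers, were higher at 10, 11 and 9 times, and Cd55, a membrane inhibitor of convertases, at 8 times (1.21 ± 0.26 at 12 hours).

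Regulators of hepatocyte secretory genes were listed as well. Socs3, a target and inhibitor of interleukin-6 signalling, was 3.83 ± 0.55 higher at 6 hours, when the fibrinogen chains were higher. Cebpd was 3.55 ± 0.43 and Cebpb 1.28 ± 0.22 higher at 6 hours, and Cebpa, a factor of the resting hepatocyte, was -2.10 ± 0.37 at 12 hours. Their part in the changes of the clotting and complement genes was not tested.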

How the data were processed

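Liver RNA was hybridized to 52 Affymetrix mouse genome arrays. The deposited values were log2 expression, summarised from probes with RMA in oligo 1.52.0, per the submitters' processing notes. The array medians over all probe sets lay between 3.89 and 4.10, with the control group highest (4.04). Joint normalization of the 52 arrays is not stated. Groups and replicate numbers came from the titles.

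Of 45101 probe sets, 34958 had 1 gene in the platform annotation, which can be old, 932 had several and 9211 were not listed. Of 18195 genes, 9011 had more than 1 set and 18033 were matched by Entrez identifier. Among the 37 genes, 8 had more than 1 set.

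Group means of all arrays were fitted with limma 3.58.1 (lmFit, eBayes) in R 4.3.3, and two-sided p-values were adjusted by Benjamini-Hochberg over all genes. The procedure was tested on simulated data. Every listed gene is given. Of the other pathway genes, up to 4 per list are named, by the number of times called against control and, among ties, by the size of the change. The genes and lists were chosen with earlier results of these data known, and no list was tested. The 7 arrays left out in 1 alternative were chosen on Xist (above 6), on Gapdh (difference above 2) or on a negative correlation with the own group, by limits set after the values had been seen. The number of arrays limits the precision. The alternatives were a replicate block, 2 groups alone, probe-set means, a filter on low levels, other normalizations, priors, weights and thresholds, covariates, and arrays left out.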

Additional observations from a re-analysis of the deposited data

Results flagged for a closer look

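By Dixon's ratio, 1 array stood apart from its group in 32 of 296 combinations of gene and group (10.8%). Each group held 4 to 10 arrays. Chance alone gives about 1 in 20 for a single combination, but the genes share arrays, so the combinations are not independent. The ratio sets a gap against the range of the group, so the gap can be small. F10 at 4 days was flagged at 11.39 beside 11.33 to 11.34. Of the 32 flags, 13 were on 4-week replicate 1 and 6 on 1-week replicate 4.

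On 4-week replicate 1 the low values were Klkb1 7.22, Serpind1 8.45, F7 7.90, F11 7.95, F13b 9.79, Serpinc1 12.59, Proz 9.03, C2 7.85, C6 8.13, C8a 11.37, C9 11.29 and Mbl2 9.95. Thbd was high there, at 7.13, while the other 4-week arrays read 4.11 to 4.49. Many of these are genes that were low at 12 hours, and this array correlated with the 12-hour group.

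On 1-week replicate 4 the low values were Klkb1 6.95, Serpind1 10.02, C8a 10.18, C8g 8.43 and Mbl2 9.01, and Serping1 was high at 12.34.

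Other arrays had 1 or 2 such values each. Mbl1 (10.33) and Mbl2 (10.64) were low on 3-day replicate 2, where the other 3-day arrays read 12.01 to 12.08 for Mbl2. At 4 days F10 (11.39) and Serpinf2 (11.51) were high on replicate 1 and F9 (10.06) was low on replicate 2. Pros1 (9.27) was high on 48-hour replicate 4 and C8g (10.83) low on 48-hour replicate 2. At 4 weeks Vtn (12.60) was high on replicate 3 and C4bp (11.71) on replicate 4. F2 (12.53) was low on control replicate 1, Cfb (10.11) on 12-hour replicate 3, and at 6 hours F12 (10.69) was high on replicate 2 and Klkb1 (9.50) on replicate 3.

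The change from control differed in direction between times for 3 genes, by a test of the difference added after the values were seen. F5 was 0.85 ± 0.11 higher at 48 hours than at 12 hours, Serpind1 2.31 ± 0.31 and Cfi 0.75 ± 0.10 higher at 4 days than at 12 hours, with limma adjusted p of 2.2e-06, 3e-06 and 3.2e-06.

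Xist, outside the genes studied, read 9.15, 9.48 and 9.12 on 24-hour replicates 9, 10 and 11, and 2.51 to 3.81 on all other arrays.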

How the results depend on the processing

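The 126 called changes kept their sign under every alternative run, but many were no longer called. With the hybridization controls as a covariate 55 stayed called and 71 did not. Each array left out in turn gave 1353 values, of which 1136 stayed called and 217 did not. Counts of called genes that moved by over 1.5 times are given next, and other counts stayed within that.

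With a fit of the 2 groups alone, the count was 1 (1 h), 1 (4 weeks), 9 (3 months), 3 (24 h less 1 h) and 5 (1 week less 24 h). With a further quantile normalization, the count was 1 (1 h), 0 (2 weeks), 3 (3 months) and 2 (3 months less 1 week). With array weights, the count was 4 (1 h), 19 (6 h), 2 (2 weeks), 9 (3 months), 21 (24 h less 1 h), 21 (1 week less 24 h) and 5 (3 months less 1 week). With an adjusted p under 0.01, the count was 0 (1 h), 4 (6 h), 13 (12 h), 4 (48 h), 9 (3 d), 7 (4 d), 9 (1 week), 0 (2 weeks), 0 (4 weeks), 2 (3 months), 5 (24 h less 1 h) and 8 (1 week less 24 h). With the 7 arrays left out, the count was 1 (1 h, 4.3% of all genes), 14 (6 h, 23.8%), 2 (2 weeks, 3.94%), 1 (4 weeks, 5.85%), 8 (3 months, 29.5%) and 7 (3 months less 1 week, 2%). With the hybridization controls as a covariate, the count was 0 (1 h, 0.0879% of all genes), 5 (48 h, 11.8%), 2 (3 d, 1.03%), 1 (4 d, 0.676%), 0 (1 week, 0.775%), 0 (2 weeks, 0.0275%), 0 (4 weeks, 1.23%), 0 (3 months, 0%), 7 (1 week less 24 h, 4.45%) and 1 (3 months less 1 week, 1.13%). With the Gapdh difference as a covariate, the count was 1 (1 h), 0 (2 weeks) and 3 (4 weeks). With 24-hour replicates 1, 9, 10 and 11 left out (chosen after seeing the data), the count was 5 (24 h less 1 h). With genes of low level left out, the count was 2 (3 months less 1 week). With median centring, the count was 1 (3 months less 1 week). Where a count stands without a percentage, the share of all genes called in that fit is not given. Whether such a move was particular to the genes studied therefore cannot be told. The same limit holds for the counts below with a replicate block or with single arrays left out.

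Deviations of same-numbered arrays correlated at a median of -0.0009 over 224 pairs, with a range of -0.55 to 0.41. The median was 0.0038 over 988 pairs with different numbers. Such a median shows no common pairing by number but cannot exclude that some arrays were paired. With the replicate number as a block the count was 2 (4 weeks), 7 (1 week less 24 h) and 3 (3 months less 1 week).

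Leaving out 1 array at a time, the lowest and highest counts were 0 and 2 (1 h), 7 and 10 (6 h), 15 and 19 (12 h), 11 and 17 (24 h), 4 and 10 (48 h), 10 and 15 (3 d), 7 and 11 (4 d), 11 and 15 (1 week), 0 and 1 (2 weeks), 0 and 7 (4 weeks), 2 and 6 (3 months), 4 and 12 (24 h less 1 h), 9 and 15 (1 week less 24 h), 0 and 2 (3 months less 1 week) and 28 and 30 by the F test. The lowest came without 1-h replicate 1 (1 h), control replicate 1 (48 h), control replicate 1 (4 d), 2-week replicate 1 (2 weeks), control replicate 1 (4 weeks), 3-month replicate 1 (3 months) and 1-h replicate 1 (24 h less 1 h). Depth does not apply to arrays. Thbd and F3 lie near the median of all probe sets in control, and fibrinogen lies near the top of the scale.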
